A study of Mus musculus with 6 samples.

Results

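The genes described here are 10 transcriptional targets of YAP and the TEAD factors: Ccn1, Ccn2, Ankrd1, Amotl1, Amotl2, Axl, Crim1, Lats2, Ajuba and Nuak2. They were chosen by name from a list of known targets, among 19856 genes measured and with earlier results of these data known. Each was read by 1 probe set that carries a single gene symbol. Signals came from whole-transcript Affymetrix arrays hybridised with total RNA of mouse embryonic fibroblasts, connective tissue cells grown out of embryos. The tetraploid line, labelled as having an abnormal DNA content and called transformed in the series title, and the diploid line, labelled as the normal control, were each measured on 3 arrays. Both lines were grown in medium with 10% serum to 80% confluence. With 1 line for each ploidy, the effects of ploidy, of transformation and of the line itself cannot be told apart. The sources used here do not state the age of the embryos, how the tetraploid line arose, or whether its 3 samples, or those of the diploid line, came from separate cultures. Every p-value measures only the spread between these samples, which may be technical. Values are log2 signals, and a background level was taken on each array from olfactory receptor genes, known mainly from the nose. It lay between 7.01 and 7.41. All 10 fibroblast markers examined (Col1a1, Col1a2, Col3a1, Vim, Pdgfra, Pdgfrb, Thy1, Twist1, Prrx1 and Fn1) were above it on all 6 arrays.

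YAP and its relative TAZ are coactivators without a DNA-binding domain of their own. They enter the nucleus when cells spread, pull on their matrix or have few neighbours, and bind there to TEAD factors, which recognise the DNA sequence GGAATG. The Hippo kinase cascade, which ends in the kinases LATS1 and LATS2, phosphorylates both coactivators and keeps them in the cytoplasm. Several targets feed back on this switch: LATS2 is itself the inhibiting kinase, angiomotin proteins hold YAP outside the nucleus, and AJUBA restrains the LATS kinases. In fibroblasts the pathway is known for driving matricellular and contractile genes.

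Promoter sequences are shown first because 7 of the 8 target genes with a promoter window carried the TEAD core sequence there. The windows run from 250 bases before to 50 bases after the gene start, in RefSeq's annotation of the mouse build GRCm38.p6. Of the 10 genes 8 had a window, and Ccn2 and Nuak2 had none. GGAATG was searched on both strands, so that CATTCC counts as a match on the opposite strand. It was found in 7 of the 9 windows of these genes, Lats2 having 2 windows of which 1 matched, and in 14.7% of all 32851 windows. Amotl1 had no match in its window. Each match is given below with 12 bases on either side, read on the strand that spells GGAATG, which is in capitals.
Ccn1, chr3:145650071-145650100, plus strand, 103 bases before the start: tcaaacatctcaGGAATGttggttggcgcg
Axl, chr7:25788949-25788978, minus strand, 233 bases before the start: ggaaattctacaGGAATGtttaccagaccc
Amotl2, chr9:102717727-102717756, minus strand, 65 bases before the start: gctgctatgccaGGAATGtgagagtttcag
Ajuba, chr14:54577830-54577859, plus strand, 186 bases before the start: gaggggcactgtGGAATGtatccatcaacg
Ajuba, chr14:54577808-54577837, plus strand, 164 bases before the start: ttgtttacagttGGAATGcgcggaggggca
Lats2, chr14:57746102-57746131, minus strand, base 5 after the start: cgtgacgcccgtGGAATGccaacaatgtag
Crim1, chr17:78200157-78200186, plus strand, 79 bases before the start: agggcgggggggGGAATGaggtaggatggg
Ankrd1, chr19:36120037-36120066, minus strand, 210 bases before the start: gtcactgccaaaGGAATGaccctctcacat
Ankrd1, chr19:36119950-36119979, minus strand, 123 bases before the start: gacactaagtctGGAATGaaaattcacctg
Ajuba and Ankrd1 each held 2 matches. The site of Lats2 lay just after its start, and the others lay before theirs. Those of Ccn1, Axl and Amotl2 shared the longer run CAGGAATGT, a sequence picked out after the sites had been seen. It occurred in 0.511% of all windows and in 3 of 28 windows of the Hippo pathway genes (10.7%). The whole 250 bases before the start are shown for Ccn1, which fell in the tetraploid line, for Ajuba, which fell and holds 2 matches, and for Ankrd1, which holds 2 matches and did not pass the test. They are read 5′ to 3′ on the strand of the gene, with GGAATG or CATTCC in capitals.
Ccn1, chr3:145649986-145650235, minus strand: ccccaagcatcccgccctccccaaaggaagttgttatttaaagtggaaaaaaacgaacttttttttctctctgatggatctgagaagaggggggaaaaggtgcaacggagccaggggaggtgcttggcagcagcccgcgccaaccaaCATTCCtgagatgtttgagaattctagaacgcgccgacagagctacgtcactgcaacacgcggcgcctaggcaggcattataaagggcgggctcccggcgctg
Ajuba, chr14:54577662-54577911, minus strand: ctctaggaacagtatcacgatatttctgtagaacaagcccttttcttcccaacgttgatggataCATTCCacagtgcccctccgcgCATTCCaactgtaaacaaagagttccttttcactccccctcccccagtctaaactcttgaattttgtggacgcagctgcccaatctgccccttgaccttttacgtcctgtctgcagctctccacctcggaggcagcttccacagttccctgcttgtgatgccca
Ankrd1, chr19:36119845-36120094, minus strand: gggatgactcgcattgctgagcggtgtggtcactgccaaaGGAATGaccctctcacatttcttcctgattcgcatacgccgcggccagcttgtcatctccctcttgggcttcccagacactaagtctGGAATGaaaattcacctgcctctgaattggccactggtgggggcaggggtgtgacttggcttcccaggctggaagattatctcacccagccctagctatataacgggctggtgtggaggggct
The AP-1 sequence TGANTCA, searched on both strands, which read alike, was found in 0 of the 9 windows and in 7.81% of all windows. The CArG box of the serum response factor, also alike on both strands, was found in 0 of the 9 and in 1.63% of all. The sequence TATAAA, searched on both strands, stood in 1 of the 9, that of Ccn1, and in 13.6% of all. A CArG box can contain TATAAA, and CAGGAATGT contains GGAATG. GC content of the 9 windows ranged from 42.7% to 76.0%, with 53.8% over all windows. Over the whole array, GGAATG stood in 14.3% of windows of genes that fell, 12.8% of windows of genes that rose and 13.1% of windows of genes that did not pass. Among the other lists described below it stood in 1 of 10 windows of further YAP signature genes (10.0%) and in 12 of 28 windows of Hippo pathway genes (42.9%). A match is a run of letters and does not show binding.

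The first comparison asked how the target genes differ between the tetraploid and the diploid line. All 10 had a lower mean in the tetraploid line, as 45.2% of all genes did, 6 fell and 0 rose. Ccn2, Crim1, Lats2, Ccn1, Amotl2 and Ajuba fell, in order of size from 11.5-fold to 1.83-fold. Nuak2, Amotl1, Axl and Ankrd1 did not pass the test. The test was limma over all genes, a gene being called at a Benjamini-Hochberg adjusted p below 0.05, and every adjusted p below is from it. Over all 19856 genes 7.80% fell, 6.15% rose and 14.0% were called in all. Among the 8627 genes above background on all 6 arrays, as 9 of the 10 targets were, 7.55% fell. The median difference, tetraploid minus diploid, was -1.12 over the targets and 0.07 over all genes. In bulk RNA, fewer cells of a type and less RNA per cell cannot be told apart.

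**Figure D1:**
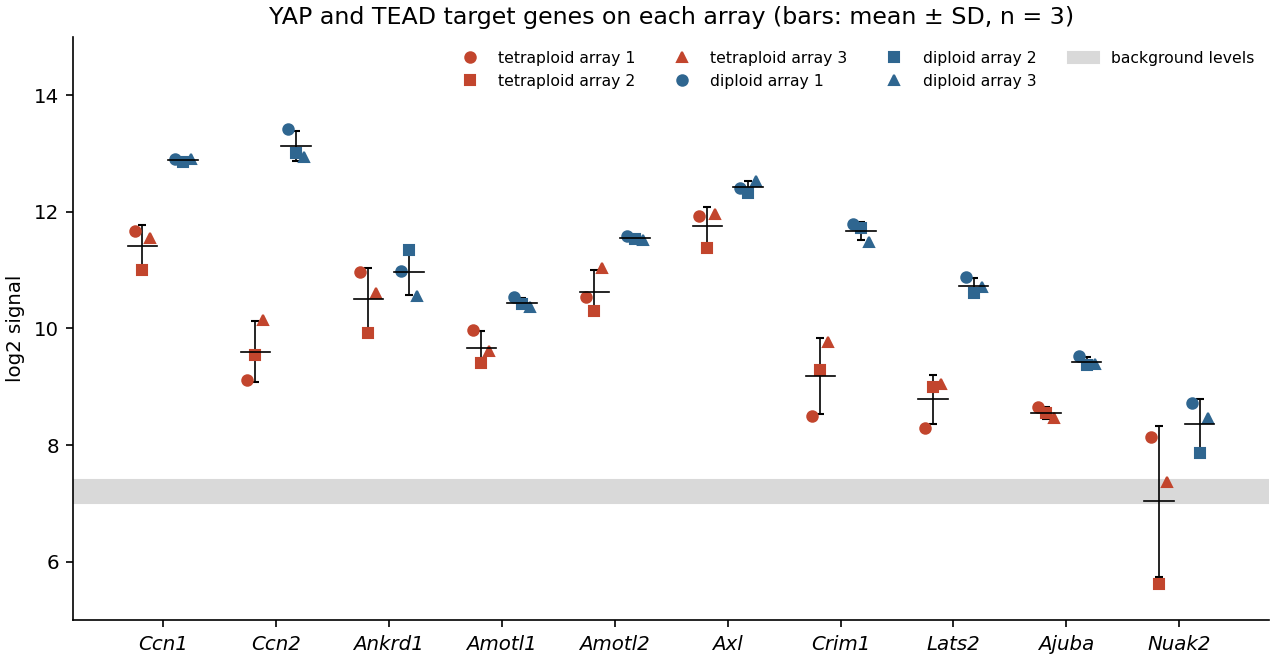
Log2 signal of the 10 target genes (horizontal axis) on each array, with symbols for arrays 1 to 3 of each line, bars for the mean ± SD of 3 arrays and a grey band for the range of the background levels, 7.01 to 7.41. The diploid points lie above all tetraploid points for 8 genes, and the groups overlap for Ankrd1 and Nuak2.

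In 8 of the 10 genes the 3 tetraploid arrays lay below the 3 diploid arrays, with a gap between the groups of 0.35 to 2.79 log2. All tetraploid arrays lay below all diploid arrays in 18.2% of all genes and in 22.1% of those above background on all arrays. The exceptions were Ankrd1 and Nuak2. With 3 arrays in each line the smallest two-sided p of an exact permutation test is 0.1, so single genes rest on the limma fit.

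Ccn1 and Ccn2 encode secreted matricellular proteins that bind integrins and are among the most used readouts of YAP activity. Ccn2 (probe set 10362201) read 9.12, 9.54 and 10.15 on the tetraploid arrays, in the order of their numbers, and 13.42, 13.01 and 12.94 on the diploid ones. The highest tetraploid array was 2.79 log2 below the lowest diploid array, the widest gap among the 10 genes. The means were 9.60 ± 0.52 and 13.13 ± 0.26 (SD, n = 3), a fall of 11.5-fold (95% interval 6.95 to 19.0, adjusted p = 0.00136). Only 1.41% of all genes had a difference this low or lower. Ccn1 (probe set 10502655) read 11.67, 10.99 and 11.56 in the tetraploid line and 12.91, 12.85 and 12.90 in the diploid line. The diploid arrays lay within 0.06 log2 of each other, and all tetraploid arrays lay below them. The means were 11.41 ± 0.36 and 12.89 ± 0.03 (SD, n = 3), a fall of 2.79-fold (95% interval 1.89 to 4.10, adjusted p = 0.0109). The call of Ccn1 ended without diploid array 2 (adjusted p = 0.0501).

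Crim1 encodes a membrane protein with cysteine-rich repeats that binds BMP growth factors. Its probe set (10446986) gave 8.49, 9.29 and 9.78 in the tetraploid line and 11.79, 11.72 and 11.49 in the diploid line. The groups were 1.71 log2 apart at their nearest arrays. Means of 9.19 ± 0.65 and 11.67 ± 0.16 (SD, n = 3) made a fall of 5.59-fold (95% interval 3.21 to 9.73, adjusted p = 0.00663).

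The feedback genes of the pathway were all lower in the tetraploid line, as 45.2% of all genes were. Of these 4 genes 3 passed the test, where 7.80% of all genes fell. Lats2, the kinase that inactivates YAP and TAZ, read 8.29, 9.00 and 9.05 in the tetraploid line (probe set 10420413) against 10.88, 10.61 and 10.72. The lowest diploid array exceeded the highest tetraploid array by 1.55 log2. The means, 8.78 ± 0.43 and 10.73 ± 0.13 (SD, n = 3), differed by 3.87-fold (95% interval 2.52 to 5.94, adjusted p = 0.00630). Ajuba, a LIM-domain scaffold that restrains the LATS kinases, was at 8.65, 8.55 and 8.46 in the tetraploid line (probe set 10419790) and at 9.52, 9.37 and 9.39 in the diploid line. It was the most even of the 10 genes within the tetraploid line, with a range of 0.19 log2 over the 3 arrays. It fell by 0.87 ± 0.18 on the log2 scale (difference ± SE, n = 3 per line, 1.83-fold, adjusted p = 0.0245). The call of Ajuba ended without tetraploid array 2 or 3 or any 1 diploid array (adjusted p 0.0519 to 0.102).

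Amotl1 and Amotl2 encode angiomotin-like proteins of cell junctions, which bind YAP. Amotl2 (probe set 10588226) read 10.54, 10.29 and 11.04 in the tetraploid line against 11.58, 11.54 and 11.52. The groups did not overlap, and the diploid arrays were within 0.06 log2 of each other. The difference of -0.92 ± 0.24 (log2, SE, 1.89-fold lower) passed narrowly, at an adjusted p of 0.0479, and the call ended without any 1 array except tetraploid array 3 (adjusted p 0.0915 to 0.146) and with quantile normalization (adjusted p = 0.0546). Amotl1 (probe set 10590918) read 9.97, 9.40 and 9.61 against 10.53, 10.42 and 10.36. Here too the groups did not overlap. Its difference of -0.78 (95% interval -1.30 to -0.26) narrowly missed the threshold (adjusted p = 0.0585), and it passed without tetraploid array 1 (adjusted p = 0.0343) and in 4 other alternatives (adjusted p 0.00744 to 0.0322). Amotl1 and Amotl2 thus lay on opposite sides of the threshold with similar differences, and a difference between them was not tested.

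Axl encodes a receptor tyrosine kinase of the TAM family, whose ligand is GAS6. Its tetraploid arrays read 11.93, 11.38 and 11.97 (probe set 10561104) and its diploid arrays 12.42, 12.32 and 12.53. The groups were 0.35 log2 apart. The difference was -0.66 (95% interval -1.21 to -0.12, 1.58-fold lower) and did not pass (adjusted p = 0.107), though it did in 3 alternatives, those restricted to genes above the median level, with values raised to background and with a mean-variance trend (adjusted p 0.0188 to 0.0390).

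Nuak2 encodes a kinase related to AMPK that acts on actin and myosin contraction. The tetraploid values were 8.13, 5.61 and 7.37 (probe set 10349782) and the diploid values 8.73, 7.87 and 8.47. Tetraploid array 2 lay below background, and tetraploid array 1 lay above diploid array 2. The difference was -1.31 (95% interval -2.78 to 0.15, adjusted p = 0.212), the widest interval of the 10 genes. It moved to -0.60 without tetraploid array 2 (adjusted p = 0.373), to -1.86 without tetraploid array 1 (adjusted p = 0.0926) and to -0.72 with values raised to background (adjusted p = 0.0830).

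Ankrd1 encodes an ankyrin repeat protein of nucleus and sarcomere and is a strongly responding YAP target in many cells. Its difference was the smallest of the 10. Probe set 10467191 read 10.97, 9.93 and 10.61 in the tetraploid line and 10.98, 11.35 and 10.56 in the diploid line. Tetraploid array 1 was level with diploid array 1, and the lowest diploid array lay below tetraploid arrays 1 and 3. The difference was -0.46 (95% interval -1.25 to 0.34, 1.37-fold lower, adjusted p = 0.423). It passed in none of the 14 alternatives (limma adjusted p 0.230 to 0.783), and its unadjusted limma p was 0.217. The interval reaches from a fall of 2.38-fold to a small rise, so it does not show that Ankrd1 was the same in both lines.

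**Figure D2:**
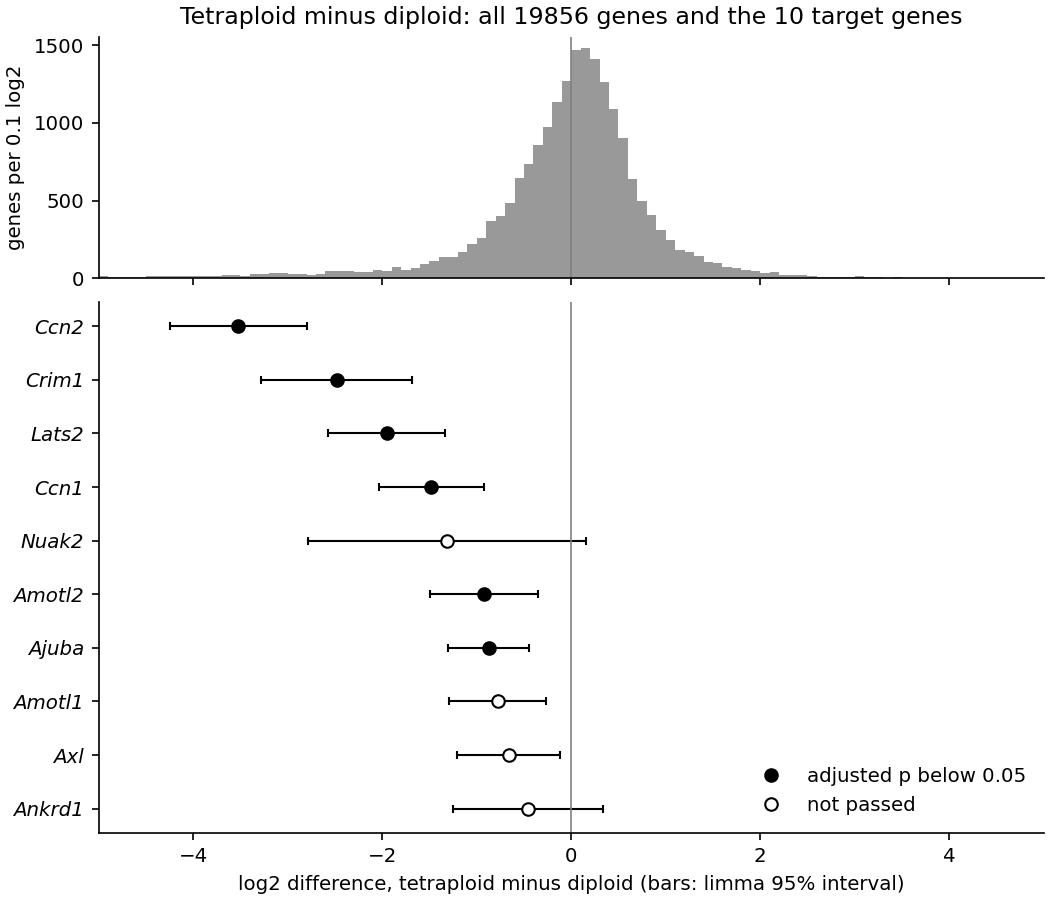
The upper panel is a histogram of log2 differences (horizontal axis, tetraploid minus diploid) over 19856 genes in steps of 0.1, and the lower panel gives each target gene's difference with its limma 95% interval. All 10 targets lie left of 0, from -3.52 for Ccn2 to -0.46 for Ankrd1, and the 6 filled points passed the test. The axis ends at 5 log2 on either side, which leaves 108 genes outside.

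The spread among the tetraploid arrays was larger than among the diploid arrays for all 10 targets. The median SD of the targets was 0.40 in the tetraploid line and 0.12 in the diploid line. The same direction held for 64.8% of all genes and for 78.0% of those above background on all arrays, where the median SDs were 0.28 and 0.14.

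The targets were not ordered alike over the tetraploid arrays. Array 2 was the lowest of the 3 for Ccn1, Ankrd1, Amotl1, Amotl2, Axl and Nuak2, array 1 for Ccn2, Crim1 and Lats2, and array 3 for Ajuba. Array 2 was thus the lowest for 6 of the 10, against 31.1% of all genes. Relative to the diploid mean, Ccn2 stood at -4.01, -3.59 and -2.97 log2 on arrays 1, 2 and 3, and Crim1 had the same order, at -3.17, -2.38 and -1.89. Nuak2 was nearest to the diploid mean on array 1, at -0.22, and farthest on array 2, at -2.74. The highest tetraploid array was array 1 for 5 targets and array 3 for the other 5. Of 6 smooth muscle markers, which encode contractile proteins, 4 were lowest on array 2 and 2 on array 1, and all 6 were highest on array 3. Over all genes, array 3 was the highest for 28.8%. Myh11 and Des lay below background on every tetraploid array, and Actg2 on arrays 1 and 2, so the order of these values is uncertain.

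**Figure D3:**
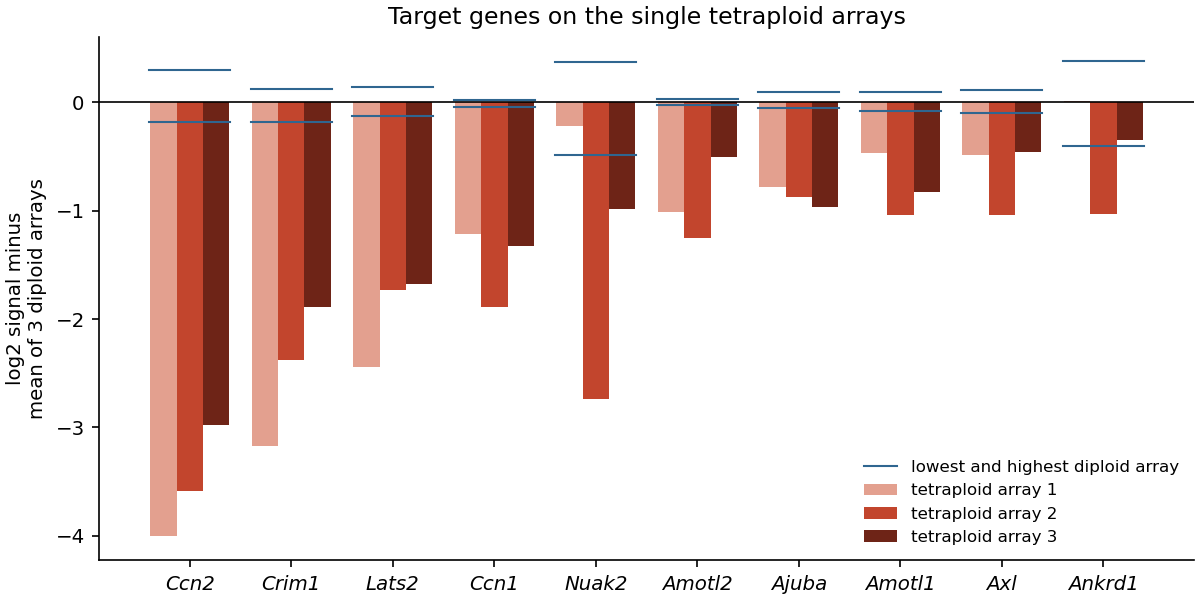
Bars give the log2 signal on each tetraploid array minus the mean of the 3 diploid arrays for the 10 target genes, and blue lines mark the lowest and highest diploid array on the same scale. Ccn2, Crim1 and Lats2 are lowest on array 1, while Nuak2 and Ankrd1 are close to the diploid mean on array 1 and lowest on array 2.

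The next question was whether the genes that carry the signal to these targets differed too. Of 30 measured Hippo pathway genes, taken from a list without the 10 targets, 6 fell, 1 rose and 23 did not pass, and their median difference was -0.43. Over all genes 7.80% fell and 6.15% rose, with a median difference of 0.07. Yap1, the coactivator itself, read 9.48, 9.51 and 9.49 in the tetraploid line and 10.24, 10.30 and 10.32 in the diploid line. The arrays of each line lay close together, and the groups did not overlap. Yap1 was 1.73-fold lower (difference -0.79 ± 0.18, SE, n = 3 per line, adjusted p = 0.0296). Wwtr1, which encodes TAZ, was at 10.48 ± 0.23 against 10.43 ± 0.09 (SD, n = 3, adjusted p = 0.897), with a 95% interval of the log2 difference from -0.43 to 0.54. The difference between these coactivator genes was not tested.

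Of the TEAD factors, which bind the DNA, none of the 4 passed the limma test (unadjusted p under 0.05 in 2 of them). Tead1 was at 11.00 ± 0.32 against 11.82 ± 0.03 and Tead2 at 11.12 ± 0.30 against 10.31 ± 0.03 (SD, n = 3), with differences of -0.82 and 0.81 on the log2 scale. Tead1 had 2 probe sets, and only the one with the higher mean is given. With the mean of a gene's probe sets, 8 Hippo pathway genes were called and 7 of them fell, against 7 and 6. All tetraploid arrays were below all diploid arrays for Tead1 and above them for Tead2, and the adjusted p was 0.0535 and 0.0529. Tead3 differed by -0.44 (adjusted p = 0.367) and Tead4, close to background, by 0.11 (adjusted p = 0.892). The TEAD cofactor gene Vgll3 was 2.04-fold lower (adjusted p = 0.0227), and Vgll4, which competes with YAP for TEAD, differed by -0.09 (adjusted p = 0.869).

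Among the kinases and their regulators, Stk4, which encodes the Hippo kinase MST1, was 1.91-fold lower (adjusted p = 0.0287), and Taok3, a kinase that activates it, 2.48-fold lower (adjusted p = 0.0218), with tetraploid array 2 below background. The protocadherin gene Fat1 was 2.59-fold lower (adjusted p = 0.0368), and the cadherin gene Dchs1, whose product binds FAT4, was 2.94-fold higher (adjusted p = 0.0458), with diploid array 1 below background. The call of Dchs1 ended with median centring or quantile normalization (adjusted p up to 0.0556). Mob1b, a LATS cofactor named after its values were seen, was 1.72-fold lower (adjusted p = 0.0492). Leaving out 1 array gave between 0 and 8 called genes of the 30: 0 without diploid array 1, 2 or 3 and 2 without tetraploid array 2. Where limma called 0, 11 or 12 genes had an unadjusted p under 0.05. The call of Yap1 held in 1 of the 6 fits without 1 array, that of Dchs1 in 0, that of Taok3 in 3, those of Stk4, Fat1 and Vgll3 in 2 each, and that of Mob1b in 1 (adjusted p where lost 0.0520 to 0.158). Of all 2770 called genes, 29.8% to 74.0% kept the call in these fits.

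A second list held the 14 further genes of a published signature of YAP and TAZ activity, of which 8 of the 10 targets are also part. Of these 14, 6 fell, 0 rose and 8 did not pass, with a median difference of -0.53, where 7.80% of all genes fell. Igfbp3, which encodes a binding protein of insulin-like growth factors, read 7.97, 8.47 and 5.49 in the tetraploid line and 10.27, 11.10 and 10.64 in the diploid line. Tetraploid array 3 lay below background there, so the size of its fall (adjusted p = 0.0290) is uncertain. The matrix protein gene Ccdc80 was 4.77-fold lower (adjusted p = 0.00432), the growth factor gene Tgfb2 3.53-fold lower (adjusted p = 0.0376) and the phosphatase gene Ptpn14, whose product binds YAP, 2.52-fold lower (adjusted p = 0.00840). Rbms3 was 1.90-fold and Arhgef17 1.78-fold lower (adjusted p 0.0280 and 0.0382). The 8 genes that did not pass, named after their values were seen, ranged widely. Fjx1 read 7.19, 3.97 and 8.33 in the tetraploid line and 9.38, 9.00 and 8.95 in the diploid line. Its groups did not overlap, and its difference of -2.62 (adjusted p = 0.136) was the lowest of the list after that of Igfbp3, with 1 tetraploid array below background. Myof, with a difference of 0.20 (adjusted p = 0.532), had all tetraploid arrays above all diploid arrays. Dock5 (0.02, 95% interval -0.76 to 0.80), Gadd45a (0.05, 95% interval -0.79 to 0.89), Asap1 and F3 overlapped between the lines, and Foxf2 and Nt5e lay below background on all 6 arrays. The calls of Ccdc80 and Ptpn14 held in all 6 fits without 1 array, those of Igfbp3, Tgfb2 and Rbms3 in 2 each and that of Arhgef17 in 1 (adjusted p where lost 0.0503 to 0.149). The count was 2 without any 1 diploid array and 3 without tetraploid array 2.

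**Figure D4:**
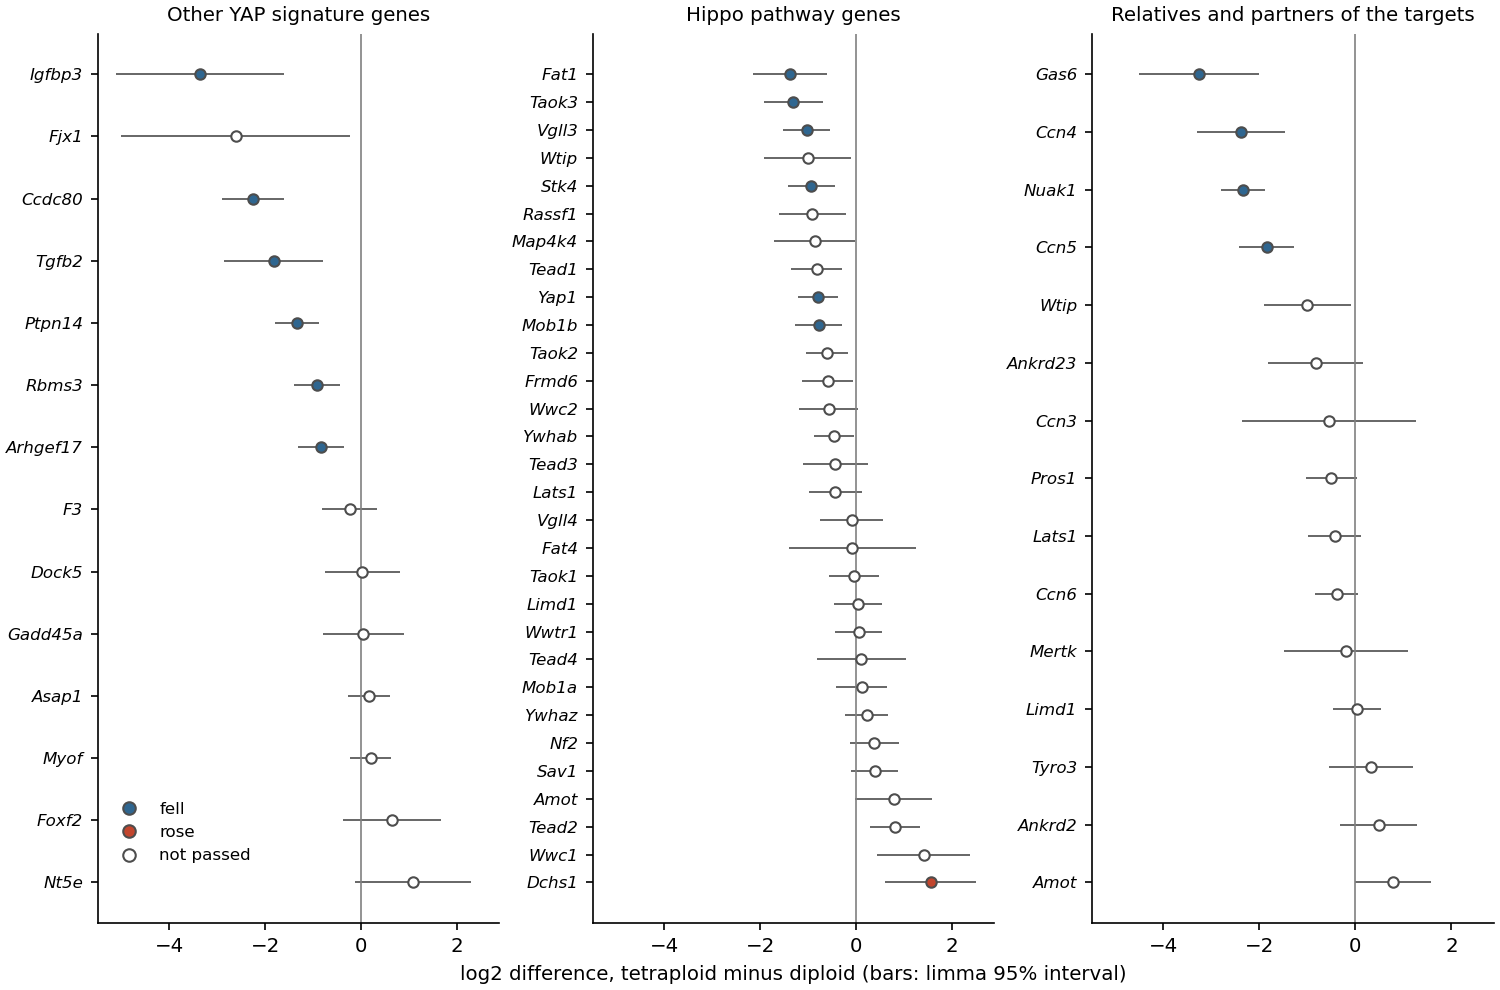
Log2 differences (horizontal axis, tetraploid minus diploid) with limma 95% intervals for the further signature genes, the Hippo pathway genes, and relatives and partners of the targets. Blue points fell, the red point, Dchs1, rose, and open points did not pass, with Yap1 among those that fell and Wwtr1 close to 0.

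Close relatives of the targets and partners of their products were set beside them. Of 15 such genes 4 fell, 0 rose and 11 did not pass, with a median difference of -0.50, where 7.80% of all genes fell. Amot, Lats1, Limd1 and Wtip also belong to the Hippo pathway list. Of the other CCN genes, Ccn4 read 9.29, 8.90 and 10.42 against 11.98, 11.90 and 11.88 in the diploid line, a fall of 5.22-fold (adjusted p = 0.0114). Ccn5 was 3.59-fold lower (adjusted p = 0.00584), while Ccn3 varied over the arrays of both lines (9.74 ± 1.08 against 10.28 ± 1.33, SD, n = 3, adjusted p = 0.695). The falls in the CCN family thus included genes outside the 10 targets. Nuak1, the relative of Nuak2, was at 8.42, 8.34 and 8.67 against 10.91, 10.70 and 10.83, 5.06-fold lower (adjusted p = 0.00118). Gas6, the ligand of AXL, was at 7.51, 9.59 and 7.80 against 11.37, 11.69 and 11.61, and its fall was 9.57-fold (adjusted p = 0.0114). The calls of Ccn4, Ccn5, Nuak1 and Gas6 held in all 6 fits without 1 array and in all 8 other alternatives.

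Other relatives did not pass. Lats1, the relative of Lats2, was at 9.51 ± 0.33 against 9.95 ± 0.14 (SD, n = 3, adjusted p = 0.275). Amot, the relative of Amotl1 and Amotl2, was on average higher in the tetraploid line, with a difference of 0.78 (95% interval -0.02 to 1.58, adjusted p = 0.177). Limd1 and Wtip, relatives of Ajuba, differed by 0.04 and -1.01 (adjusted p 0.928 and 0.133), and Tyro3 and Mertk, relatives of Axl, by 0.33 and -0.20 (adjusted p 0.616 and 0.855). Mertk lay above background on only 1 array of each line, and Wtip and Tyro3 lay below it on tetraploid array 2. Pros1, another TAM ligand gene, differed by -0.50 (adjusted p = 0.189) and Ccn6, below background on the tetraploid arrays, by -0.39 (adjusted p = 0.214). Ankrd2 and Ankrd23, muscle relatives of Ankrd1, lay below background on all 6 arrays. Differences between a target and its relative were not tested.

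The targets lie on 8 chromosomes, 2 of them on chromosome 9 and 2 on chromosome 14. For each, the 15 nearest genes on either side with a mean level above the median were taken in the RefSeq order of GRCm38.p6. The median difference of these 30 neighbours ranged from -0.13 around Axl to 0.26 around Ccn1. Each target lay below the median of its neighbours, Ccn2 at -3.52 against 0.10 and Axl at -0.66 against -0.13.

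Markers of fibroblasts and of other cell types were read beside the targets. Of the 10 fibroblast markers, 2 fell, the matrix genes Col1a1 and Fn1, and 0 rose, where 7.80% of all genes fell and 6.15% rose. Both calls held in 1 of the 6 fits without 1 array (adjusted p where lost 0.0660 to 0.152) and ended with quantile normalization. The median difference of the 10 was -0.66, 8 of 10 differences were negative, and in 6 all tetraploid arrays lay below all diploid arrays. Such a separation was seen in 22.1% of the genes above background on all 6 arrays. Pdgfra had all tetraploid arrays above (difference 1.39, adjusted p = 0.0618). The mean of the 10 was 11.77 to 12.21 in the tetraploid line and 12.26 to 12.47 in the diploid line, and the part of these markers in the result was not tested. The 10 macrophage markers averaged 3.93 to 4.38 over the tetraploid arrays but 5.04, 6.50 and 7.35 over diploid arrays 1, 2 and 3. Of them 2 fell (Lyz1 and Lyz2, whose calls held in 5 and 2 of the 6 fits without 1 array), Ptprc, Adgre1, Cd14, Itgam and Tyrobp were below background on all 6 arrays, and Lyz1 and Adgre1 were listed at 0 on tetraploid array 1. The mean of the 10 targets over the same diploid arrays was 11.27, 11.11 and 11.09. The 6 smooth muscle markers, contractile genes that fibroblasts can also express, had a mean of 7.23 to 9.26 in the tetraploid line and 11.51 to 11.94 in the diploid line, and Actg2, Myh11, Tagln and Des fell. No tetraploid array read Myh11 or Des above background and only 1 read Actg2 above it, so the size of their fall is uncertain. The call of Tagln held in 2 of the 6 fits without 1 array (adjusted p where lost 0.0710 to 0.0933). The mean of the targets was 9.78, 9.40 and 9.96 against the diploid values above, and the part of these contractile genes in the result was not tested. The means of 6 endothelial and 6 epithelial markers were 6.19 to 6.32 and 6.67 to 6.96 in the tetraploid line and 6.73 to 6.88 and 7.08 to 7.49 in the diploid line. In each list 1 gene fell, Kdr and Krt18. No tetraploid array read either above background, so the size of their fall is uncertain. Krt18 also lay below background on diploid array 1 and barely above it on diploid array 3 (7.03 against 7.01), so its fall itself is uncertain. The call of Krt18 ended without tetraploid array 2 (adjusted p = 0.0545) and with values raised to background. Below background on all 6 arrays were 4 endothelial markers, among them Pecam1 and Cdh5, and the epithelial Krt8 and Krt14. Cldn5, Cdh1 and Krt5 were above it on all 6. Cldn5 and Krt5 had all tetraploid arrays above all diploid arrays but did not pass (adjusted p 0.179 and 0.213).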

How the data were processed

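Signals were summarised by the authors with Affymetrix Expression Console, per the submitters' processing notes. The sources used here name no version, algorithm or normalization. Per-probe-set values were deposited as log2 signals, as a check showed: 2 to the power of a value gave whole hundredths for 100% of values below 1000 (tolerance 0.001). Array medians lay between 7.24 and 7.28, so the values were used as deposited. Of 28944 probe sets, 21789 carried 1 symbol, 1621 several and 5534 none, and 21698 of the first matched RefSeq's GRCm38.p6 gene table by Entrez ID. Of a gene's probe sets the one with the highest mean was kept, which left 19856 genes. Background was the 95th percentile of 1027 olfactory receptor genes on each array. Arrays give no depth, and their number limits precision.

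The comparison of the lines used lmFit and eBayes of limma 3.58.1 under R 4.3.3 (two-sided). It was tried on simulated data with the same spread in both lines, which does not cover the unequal spread seen here. No replicate block was used, since the labels do not state that same-numbered samples are paired. Deviations of same-numbered arrays correlated at 0.101, 0.0307 and -0.0461 across genes, which does not settle whether they are paired. Alternatives changed the normalization, filter, probe-set rule, background, prior variance, block and arrays. Named genes are all targets, their relatives, coactivators and TEAD partners, and up to 6 called genes of each list by adjusted p. Stk3 had 0 single-gene probe sets and was not analysed here. Members and lists were chosen with earlier results of these data known.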

Additional observations from a re-analysis of the deposited data

How the results depend on the processing

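No alternative turned the direction of any target: all 10 differences stayed negative in the 14 alternatives run. In part this was fixed in advance. The replicate block, the level filters, the mean of probe sets and the mean-variance trend leave the difference of a target with 1 probe set unchanged. For the 8 targets whose groups did not overlap, leaving out 1 array could not turn the direction. Ccn2, Crim1 and Lats2 kept their call in all 14. The count of called targets, 6 with all arrays, ranged from 3 to 6 when 1 array was left out, 3 being the value without diploid array 2, and from 4 to 8 over the other alternatives. Leaving out 1 array gave 837 to 2532 called genes in all against 2770, 2 to 7 further signature genes against 6, and 0 to 8 Hippo pathway genes against 7. With the replicate number as a block, limma called 1644 genes, 4 targets (Ccn1, Ccn2, Crim1 and Lats2), 3 signature genes and 1 Hippo gene. That gene was Dchs1, which rose, and none of the 6 Hippo genes that fell passed with the block (Yap1 adjusted p = 0.0912). Of the targets, Amotl2 and Ajuba did not pass with it (adjusted p 0.0934 and 0.0730). The labels do not state that same-numbered samples are paired, and the low correlations of their deviations do not settle it. The Hippo count was 12 with genes above the 25th percentile of level, 12 with genes above the median, 15 with values raised to background and 13 with a mean-variance trend. The first 2 of these test fewer genes, and for the other changes the cause was not tested. With values raised to background the calls of Lyz1, Lyz2 and Krt18 ended (adjusted p up to 0.464). Signal over background limits Nuak2, Igfbp3 and Taok3, each below background on 1 tetraploid array.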
